A study of Mus musculus with 16 samples.

Results

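Retinoic acid, the active form of vitamin A, was followed through 9 genes that make it, break it down, bind it or answer to it. Aldh1a1, Aldh1a2 and Aldh1a3 encode the enzymes of its last synthetic step, Cyp26a1, Cyp26b1 and Cyp26c1 the enzymes that break it down, Crabp1 and Crabp2 its binding proteins in the cytoplasm, and Rarb a receptor whose gene is itself switched on by retinoic acid. The genes were taken by name from the 23337 genes of the count tables, and all 9 passed the filter on low counts that left 16287 genes for testing.

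Poly(A) RNA of mouse first molar germs, the embryonic tooth primordia, was sequenced in 16 libraries, 8 labelled as the upper molar and 8 as the lower. The embryonic days given ran from ED14.5 to ED18.0 in steps of 0.5 days, with 1 of each label at every stage. Every embryo was a wild-type male of the outbred strain CD1 by its label, and no allele, transgene or treatment is given for any group. For each library the germs of both sides of 1 embryo were pooled, and both libraries of a stage are labelled as the same embryo, so that stage and embryo cannot be told apart. The embryos are numbered 1 to 8 in order of labelled stage. A germ contains dental epithelium and mesenchyme together, so fewer cells of a type and less RNA per cell cannot be told apart in any value below.

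Gene counts totalled 33146758 to 38584429 in the libraries labelled upper and 35918529 to 44565205 in those labelled lower. Each label was run on a flow cell of its own, so that flow cell and label cannot be told apart. Some libraries went against their labels. Pou3f3, a transcription factor gene of the upper jaw, was at 6.45 to 10.1 CPM (a count divided by the gene total of its library and rescaled) in the upper libraries of odd-numbered individuals (1, 3, 5 and 7) and at 109.5 to 131.5 CPM in those of even-numbered ones (2, 4, 6 and 8). Its labelled lower values alternated in the same way, from 4.45 to 5.46 CPM in the odd-numbered and 60.1 to 86.2 CPM in the even-numbered individuals. Nkx2-3, a homeobox gene, alternated the other way in both labels, with 768 to 2168 counts in the odd-numbered and 0 to 5 counts in the even-numbered individuals. The alternation was kept as a second contrast, even-numbered against odd-numbered individuals, with 4 libraries of each label on either side. Both labels thus hold libraries high and low in Pou3f3. Upper and lower below name the labels only. Whether the labelled tooth difference is one of jaw or of true stage was not tested. Xist, the RNA that silences an X chromosome in female cells, was at 431.8 and 542.3 CPM in labelled lower individuals 1 and 2 and at 1499 to 1928 CPM in the other 14 libraries, all of which are labelled male. The upper libraries of individuals 1 and 2 were at 1664 and 1739 CPM, so that the libraries labelled as one embryo disagreed there. Leaving out individual 1 or individual 2 ended no call of the tooth difference among the 9 genes.

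Cells take up vitamin A as retinol, oxidise it to retinal with dehydrogenases such as Rdh10, and oxidise retinal to retinoic acid with an Aldh1a enzyme. Retinoic acid moves between neighbouring cells, and a Cyp26 enzyme in the receiving cell can remove it before it reaches the nucleus. There it binds receptors of the Rar family, paired with Rxr, at response elements made of repeated half-sites, and genes such as Rarb and Cyp26a1 are direct targets in many tissues. In developing teeth and jaws, retinoic acid is known to affect patterning of the face and the early tooth germ.

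Promoter sequence was examined first because members of the set are textbook targets of the receptor. Windows from 250 bases before to 50 bases after the transcription start were taken from RefSeq (GRCm38.p6) for 7 of the 9 genes. They were searched on both strands for pairs of the half-site AGGTCA or of its relatives AGTTCA and GGGTCA and also GGTTCA, in the same orientation, 1, 2 or 5 bases apart. A pair at a spacing of 5 bases stood before 2 of the 7 genes, against 0.115% of all 27025 genes with a window. These 2, Rarb and Cyp26a1, were known targets before the search, so the comparison is a description and no test of enrichment. The windows of these 2 genes are printed 5′ to 3′ on the strand of the gene. The paired half-sites and their spacer are in capitals. The window of Cyp26c1, in which no such pair was found, is printed with them.
Rarb promoter: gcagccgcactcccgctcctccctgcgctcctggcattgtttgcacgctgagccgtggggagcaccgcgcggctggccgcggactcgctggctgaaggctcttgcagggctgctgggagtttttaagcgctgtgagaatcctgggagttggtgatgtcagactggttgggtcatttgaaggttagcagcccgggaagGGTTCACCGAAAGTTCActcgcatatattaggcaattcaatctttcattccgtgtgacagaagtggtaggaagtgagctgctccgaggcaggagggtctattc
Cyp26a1 promoter: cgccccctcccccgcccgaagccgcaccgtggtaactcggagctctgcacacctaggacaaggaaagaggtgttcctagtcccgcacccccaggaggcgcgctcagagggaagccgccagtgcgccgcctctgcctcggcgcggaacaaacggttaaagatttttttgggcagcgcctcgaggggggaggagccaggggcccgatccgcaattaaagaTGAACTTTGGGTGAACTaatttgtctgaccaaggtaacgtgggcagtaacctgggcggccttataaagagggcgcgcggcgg
Cyp26c1 promoter: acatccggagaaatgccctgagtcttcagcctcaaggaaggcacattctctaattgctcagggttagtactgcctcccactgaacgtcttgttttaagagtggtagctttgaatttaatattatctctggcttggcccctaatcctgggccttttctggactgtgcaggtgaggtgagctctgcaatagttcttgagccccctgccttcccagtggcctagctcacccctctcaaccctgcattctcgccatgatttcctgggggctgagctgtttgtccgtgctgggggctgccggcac
The Rarb window is chr14:16575427-16575726 on the minus strand, and its match, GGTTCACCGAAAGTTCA, lies 53 to 37 bases upstream of the start. The Cyp26a1 window is chr19:37697558-37697857 on the plus strand. Its match reads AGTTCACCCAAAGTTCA on the opposite strand and lies 32 to 16 bases upstream. The Cyp26c1 window is chr19:37685430-37685729 on the plus strand. A match describes the letters and does not show that the site was used in these germs.

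**Figure D1:**
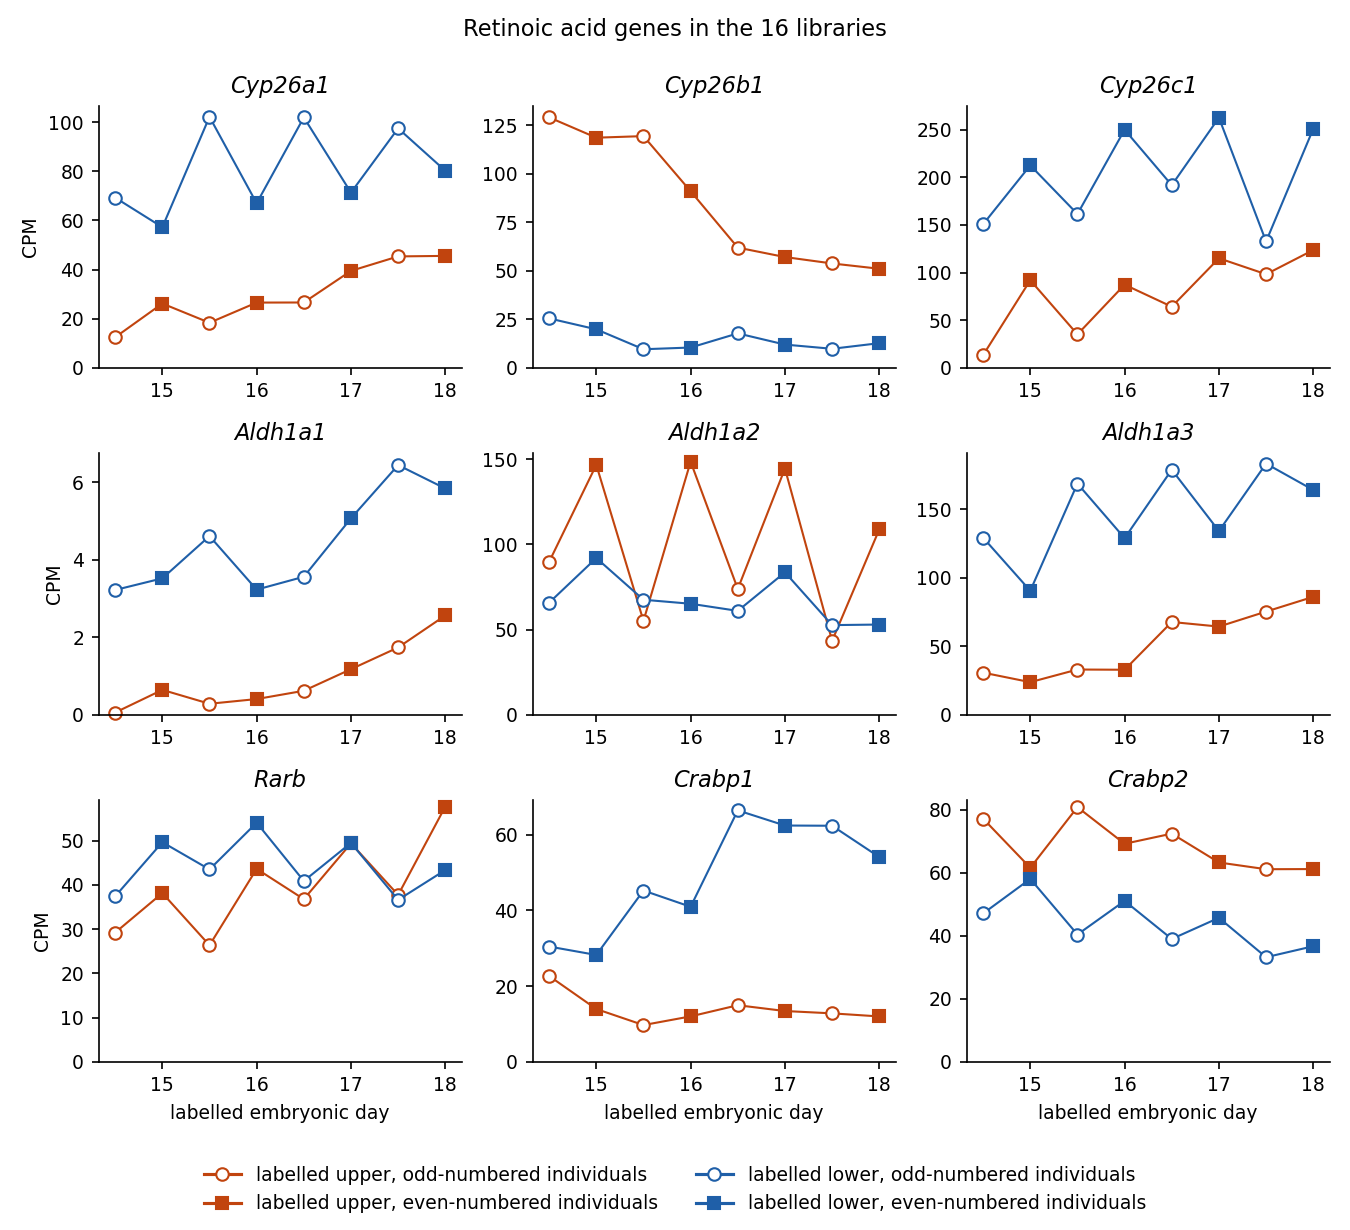
CPM of each of the 9 genes (vertical axes from 0) against labelled embryonic day, with 1 point per library. Orange is labelled upper and blue labelled lower, open circles are odd-numbered and filled squares even-numbered individuals. The colours are apart in 7 of the 9 panels. Several lines zigzag between neighbouring stages, among them Aldh1a2, Cyp26c1 and Rarb, and in lower also Aldh1a3, Cyp26a1 and Crabp2.

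Levels were compared between genes only as CPM per kilobase of exon. Cyp26c1 had the highest median in both labels, 51.3 CPM per kilobase in upper and 115.7 in lower. Aldh1a1 had the lowest, 0.128 in upper and 0.828 in lower. In the libraries labelled upper, Cyp26c1 was followed by Crabp2 at 50.1, Aldh1a2 at 43.8, Crabp1 at 16.3, Cyp26b1 at 14.3, Cyp26a1 at 13.4, Aldh1a3 at 10.6 and Rarb at 7.21 CPM per kilobase. The ranges of neighbours in this order overlapped, except for Rarb and Aldh1a1. In the libraries labelled lower, the order after Cyp26c1 was Crabp1 at 62.0, Cyp26a1 at 38.2, Crabp2 at 32.6, Aldh1a3 at 32.3, Aldh1a2 at 28.9, Rarb at 8.25 and Cyp26b1 at 2.31 CPM per kilobase. There the ranges were apart from Aldh1a2 downwards and overlapped between neighbours above it. Cyp26c1 and Aldh1a1 thus held the first and last rank in both labels. Cyp26b1 and Aldh1a2 ranked higher in upper, by 3 places each, and Cyp26a1 ranked 3 places higher in lower.

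**Figure D2:**
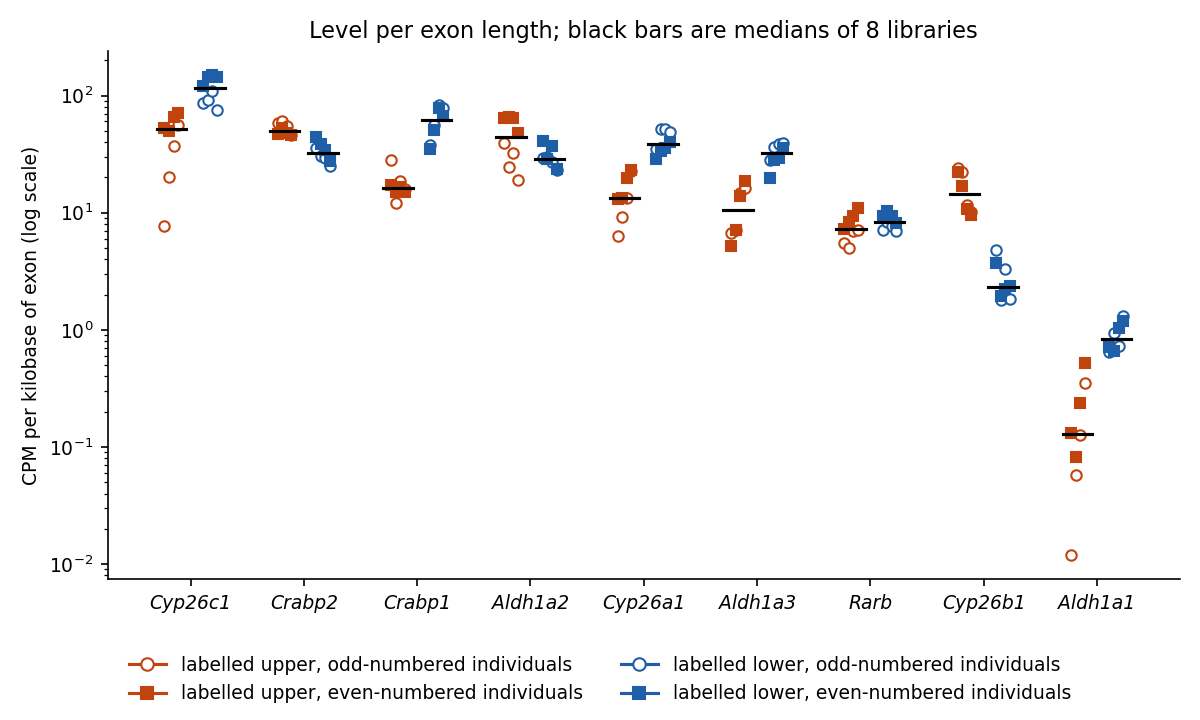
CPM per kilobase of exon (log axis) for each gene, with 1 point per library by label. Cyp26c1 is the highest in both labels by its median, 51.3 in upper and 115.7 in lower, and Aldh1a1 the lowest.

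Of the 9 genes, 8 passed the test of the labelled tooth difference at an adjusted p of 0.05. Of these, 3 were higher in upper, where 20.7% of the 16287 tested genes were, and 5 were higher in lower, where 20.4% were. The median absolute difference of all 9 was 1.49 on the log2 scale, against 0.14 over all tested genes. In 7 of the 9 genes no library of one label overlapped the range of the other, as in 6.4% of tested genes. The contrast of even-numbered with odd-numbered individuals called 2 of the 9, both higher in the even-numbered, against 7.04% of genes higher in even and 5.5% higher in odd. Each p-value measures scatter of single libraries about a smooth course of stage.

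**Figure D3:**
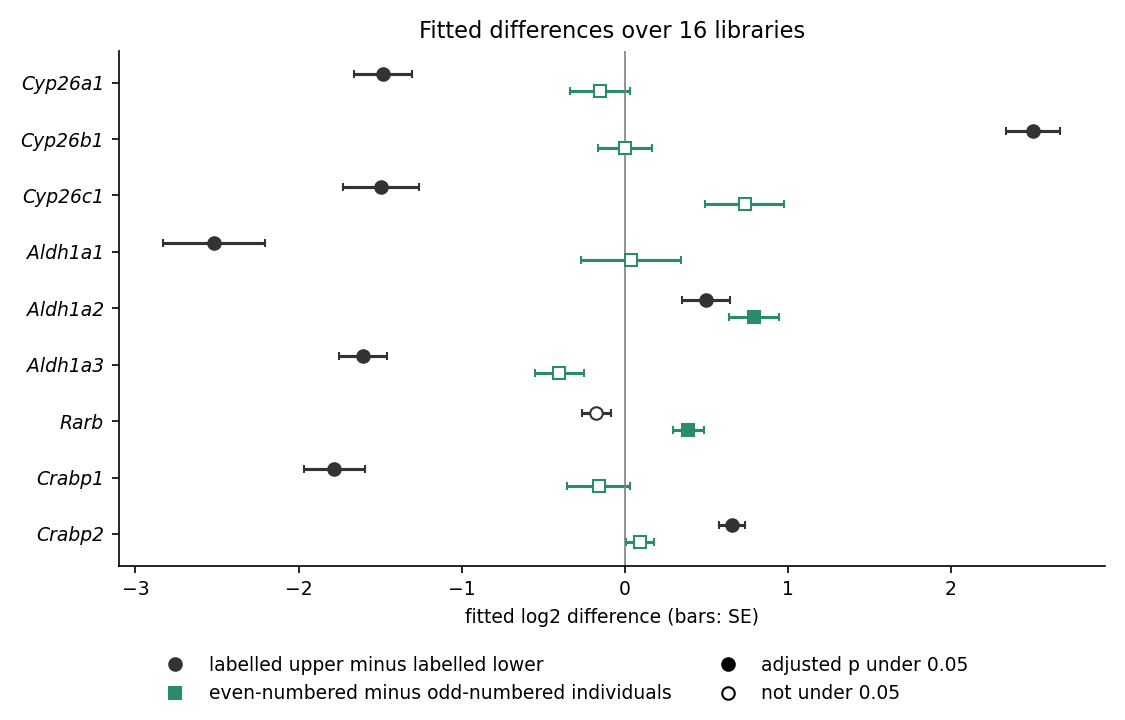
Fitted log2 difference with its standard error for each gene, for labelled upper minus lower and for even-numbered minus odd-numbered individuals. The tooth difference runs from 2.50 for Cyp26b1 to -2.52 for Aldh1a1, and the even minus odd difference is largest for Aldh1a2 at 0.79.

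The synthesis enzymes split between the labels, Aldh1a2 being higher in upper and Aldh1a1 and Aldh1a3 higher in lower. Aldh1a2 (chr9:71215789-71296243, GRCm38, as for all positions here) encodes the main embryonic retinaldehyde dehydrogenase. In labelled upper, its even-numbered libraries measured 146.6, 148.4, 144.4 and 108.7 CPM and its odd-numbered ones 89.7, 55.1, 73.8 and 43.4 CPM. All 4 even-numbered values lay above all 4 odd-numbered ones. In labelled lower, the even-numbered libraries were at 91.9, 65.1, 83.6 and 52.9 CPM and the odd-numbered ones at 65.7, 67.5, 60.9 and 52.6 CPM, so that the sets overlapped. The even minus odd difference of Aldh1a2 was 0.79 ± 0.16 on the log2 scale (SE, 16 libraries, adjusted p = 0.00459), and without individual 6 the adjusted p was 0.0587. The labelled tooth difference was 0.50 ± 0.15 (adjusted p = 0.0147), with upper higher in 6 of 8 individuals. It failed the threshold without individual 4, 6 or 8, at adjusted p = 0.0544, 0.0547 and 0.0604, and without the term for the sets, at 0.0685. Whether the sets differed more in upper than in lower gave 0.88 ± 0.22 with adjusted p = 0.0938 in edgeR and 0.0208 in DESeq2. Mean Aldh1a2 of the odd-numbered libraries was 65.5 CPM in upper and 61.7 CPM in lower, with overlap. That of the even-numbered ones was 137.0 CPM in upper and 73.4 CPM in lower.

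Aldh1a3 (chr7:66390890-66427517), a retinaldehyde dehydrogenase of epithelia in many organs, ran opposite to Aldh1a2. Its labelled upper libraries ranged from 23.8 to 86.1 CPM with a median of 48.7, and its labelled lower ones from 90.5 to 183.2 CPM with a median of 149.1. No upper library reached the lowest lower one, and the tooth difference was -1.60 ± 0.14 (adjusted p = 1.35e-06), lower being higher in 8 of 8 individuals. Aldh1a3 rose with stage in both labels, by 0.57 ± 0.06 log2 per day in upper (adjusted p = 5.08e-04) and 0.22 ± 0.03 in lower (adjusted p = 0.00491). The upper slope was the steeper by 0.36 ± 0.07 (adjusted p = 0.00865). In labelled lower the odd-numbered libraries measured 129.2, 168.7, 178.8 and 183.2 CPM and the even-numbered ones 90.5, 128.9, 134.1 and 164.0 CPM. All 7 steps between neighbouring lower libraries, and 6 of 7 in upper, went against those of Pou3f3, but the even minus odd difference of -0.40 ± 0.15 had adjusted p = 0.0974. With lane as a factor and a linear term for day in place of the smooth course, it was -0.38 with adjusted p = 0.00416.

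Aldh1a1 (chr19:20492715-20643465) was the least abundant synthesis gene, with 2 to 85 counts in the upper libraries and 120 to 258 in the lower ones. It measured 0.0588 to 2.56 CPM with a median of 0.632 in upper and 3.22 to 6.45 CPM with a median of 4.09 in lower. The labels did not overlap, and the difference was -2.52 ± 0.31 (adjusted p = 2.59e-05). Aldh1a1 rose by 1.01 ± 0.16 log2 per day in upper (adjusted p = 0.00488) and by 0.28 ± 0.07 in lower (adjusted p = 0.0376). Its value is uncertain because a closely related gene, Aldh1a7, at 0.14 to 3.90 CPM, could share its reads.

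The mixture of Aldh1a transcripts therefore differed between the labels. Aldh1a2 made up 77.6% ± 12.8 (SD, n = 8) of the summed CPM per kilobase of the 3 genes in upper and 47.8% ± 10.0 in lower. The exact two-sided permutation test of that difference gave p = 0.000466, adjusted to 0.0014 over 6 share tests. That test took the libraries as independent and left out stage and the pairing by labelled individual. The sum itself was 31.5 to 47.4 CPM per kilobase in the odd-numbered upper libraries and 67.2 to 78.0 in the even-numbered ones. In labelled lower it was 57.3 to 67.3 over all 8 libraries, above the odd-numbered upper libraries and just reaching the lowest even-numbered one.

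**Figure D4:**
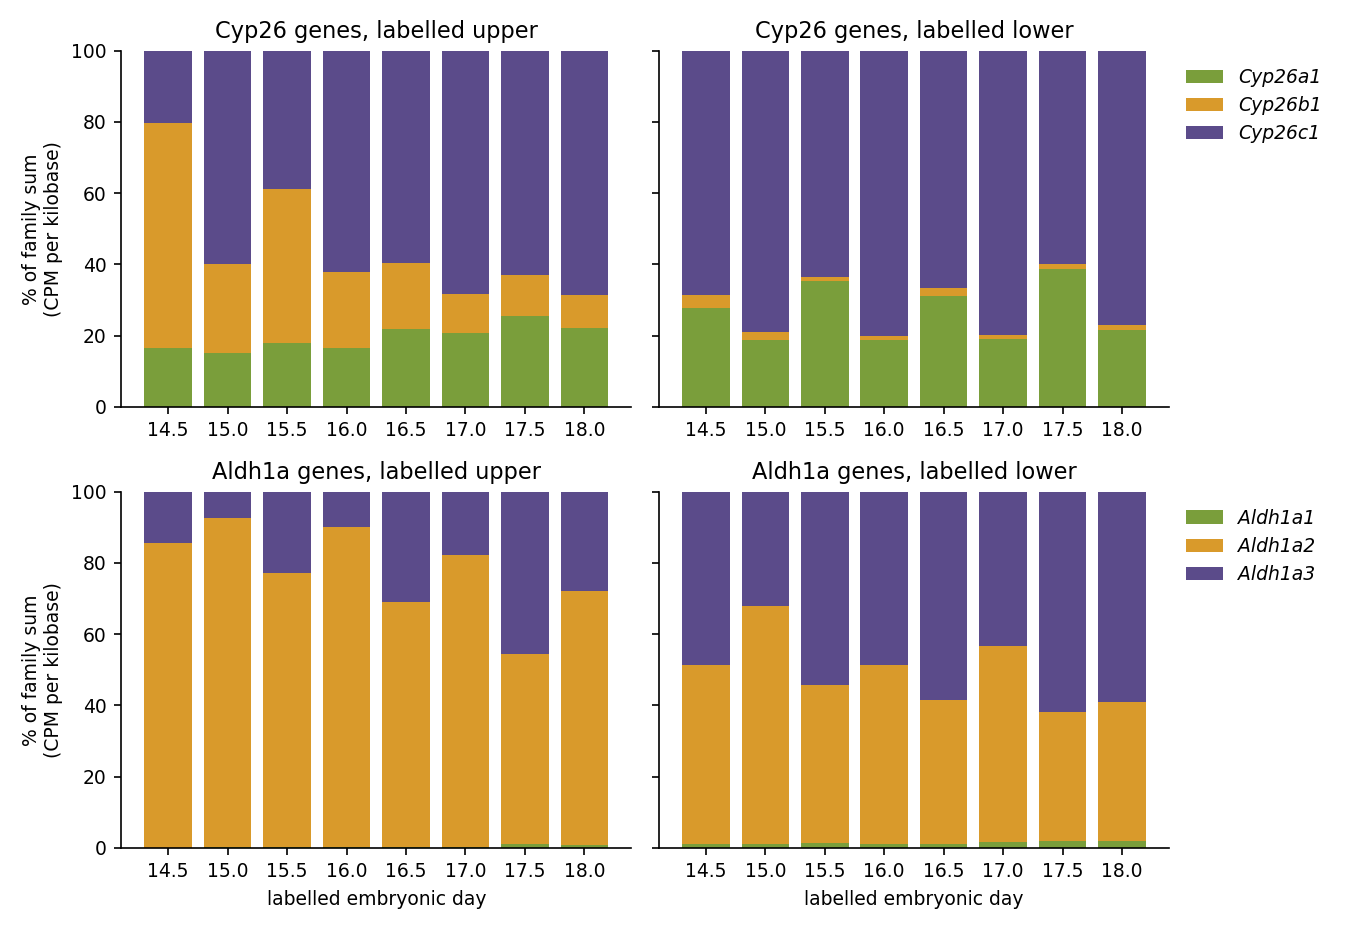
Share of each gene in the summed CPM per kilobase of the Cyp26 genes (top) and the Aldh1a genes (bottom), as 1 stacked bar per library against labelled embryonic day. Cyp26b1 averages 25.4% of the Cyp26 sum in upper and 1.81% in lower, and Aldh1a2 77.6% and 47.8% of the Aldh1a sum.

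Among the breakdown enzymes, Cyp26b1 was higher in upper and Cyp26a1 and Cyp26c1 were higher in lower, each in 8 of 8 individuals. Cyp26b1 (chr6:84571414-84593908), the breakdown enzyme of much embryonic mesenchyme, had the largest difference of these 3. The upper libraries ranged from 51.1 to 129.1 CPM with a median of 76.5, and the lower ones from 9.61 to 25.5 CPM with a median of 12.4. The lowest upper library lay above the highest lower one, and the mean was 5.79 times higher in upper. The fitted difference was 2.50 ± 0.16 (adjusted p = 8.3e-08). In upper, Cyp26b1 fell by 0.46 ± 0.05 log2 per day (adjusted p = 5.08e-04), from 129.1, 118.7 and 119.5 CPM in individuals 1 to 3 to 57.1, 53.8 and 51.1 CPM in individuals 6 to 8. In lower its slope was -0.26 ± 0.11 (adjusted p = 0.166). The sets differed by 0.00 ± 0.17, and Cyp26b1 stepped with Pou3f3 at 2 of 7 steps in upper and 4 of 7 in lower.

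Cyp26a1 (chr19:37697798-37701536), the enzyme whose promoter carried the paired half-sites printed above, was lower in upper. The upper libraries ranged from 12.5 to 45.6 CPM with a median of 26.6, and the lower ones from 57.3 to 102.2 CPM with a median of 75.8. The labels did not overlap, and the difference was -1.48 ± 0.18 (adjusted p = 2.01e-05). Cyp26a1 rose in both labels, by 0.45 ± 0.06 log2 per day in upper (adjusted p = 0.00182) and 0.15 ± 0.04 in lower (adjusted p = 0.0315). In labelled lower, the odd-numbered libraries were at 69.3, 102.2, 102.0 and 97.5 CPM and the even-numbered ones at 57.3, 67.0, 71.4 and 80.2 CPM. In labelled upper, the odd-numbered libraries were at 12.5, 18.4, 26.6 and 45.4 CPM and the even-numbered ones at 26.2, 26.6, 39.5 and 45.6 CPM. Lower thus alternated against Pou3f3 in 7 of 7 steps, and upper with it in 5 of 7. The difference between the labels in the even minus odd contrast was 0.82 ± 0.16 (adjusted p = 0.0328).

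Cyp26c1 (chr19:37685581-37693398) lies 4399 bases before Cyp26a1 on the same strand. It too was lower in upper, at 13.4 to 123.7 CPM with a median of 89.7, against 132.7 to 262.6 CPM with a median of 202.1 in lower. The difference was -1.49 ± 0.23 (adjusted p = 1.86e-04). In labelled lower, the even-numbered libraries measured 212.5, 249.9, 262.6 and 250.8 CPM and the odd-numbered ones 150.7, 161.5, 191.7 and 132.7 CPM. In labelled upper the even-numbered libraries measured 92.0, 87.3, 115.0 and 123.7 CPM and the odd-numbered ones 13.4, 35.2, 64.2 and 98.3 CPM. Cyp26c1 stepped with Pou3f3 at 7 of 7 steps in both labels. The sets were apart in lower, where they were apart in 7.51% of tested genes, and overlapped in upper. The even minus odd difference of Cyp26c1 was 0.73 ± 0.24 with adjusted p = 0.0613. It passed with a linear term for day (0.0413), with lane added to that linear term (0.0209) and without individual 1 (0.0226). The neighbouring genes Cyp26a1 and Cyp26c1 thus had tooth differences of nearly equal size. In lower their steps ran in opposite directions, but the lower sets of Cyp26a1 overlapped. Over both labels the even minus odd difference of Cyp26a1 was -0.15 ± 0.18 (adjusted p = 0.644, not called).

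As a share of the summed CPM per kilobase of the Cyp26 genes, Cyp26b1 made up 25.4% ± 18.8 (SD, n = 8) in upper and 1.81% ± 0.92 in lower. The exact two-sided permutation test, which again left out stage and pairing, gave p = 0.000155, adjusted to 0.000932. This is the smallest p that 8 against 8 independent libraries allow. The share in upper was 63.3% at the first stage and 9.24% at the last. Cyp26c1 made up 77.0% to 80.0% in the even-numbered and 59.8% to 68.5% in the odd-numbered lower libraries. The sum of the 3 genes was 38.1 to 103.3 CPM per kilobase in upper and 126.0 to 188.5 in lower, with no overlap.

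The binding proteins also split. Crabp1 (chr9:54764748-54773110), which holds retinoic acid in the cytoplasm, was lower in upper, at 9.69 to 22.7 CPM with a median of 13.1, against 28.2 to 66.5 CPM with a median of 49.7 in lower. The labels did not overlap, and the difference was -1.78 ± 0.19 (adjusted p = 5.32e-06). Crabp1 rose in lower by 0.36 ± 0.06 log2 per day (adjusted p = 0.00686), while its upper slope was -0.14 ± 0.09 (adjusted p = 0.316). The slopes differed by -0.50 ± 0.12 (adjusted p = 0.0286), but without individual 1, which held the highest upper value of 22.7 CPM, by -0.30 with adjusted p = 0.265.

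Crabp2 (chr3:87948666-87953376), which can deliver retinoic acid to its nuclear receptor, was higher in upper by 0.66 ± 0.08 (adjusted p = 2.2e-05). Its upper libraries ranged from 61.2 to 80.9 CPM with a median of 66.3, and its lower ones from 33.2 to 58.1 CPM with a median of 43.1. The ranges were apart by the small gap between 58.1 and 61.2 CPM. Crabp2 fell in lower by 0.18 ± 0.02 log2 per day (adjusted p = 0.00178), and its upper slope was -0.07 ± 0.03 (adjusted p = 0.185). In lower it stepped with Pou3f3 at 7 of 7 steps and in upper at 2 of 7. The even minus odd contrast of Crabp2 differed between the labels by -0.49 ± 0.10 (adjusted p = 0.0341). Of the summed CPM per kilobase of both genes, Crabp1 made up at most 32.6% in upper and 44.5% to 75.6% in lower.

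The promoter window printed above lies inside the limits of Rarb (chr14:16430839-16819156) and not at its outermost start, whereas the counts are for the whole gene. Rarb did not pass the tooth test. Its upper libraries ranged from 26.4 to 57.7 CPM with a median of 38.0, and its lower ones from 36.6 to 54.1 CPM with a median of 43.5. The labels overlapped, and the difference was -0.17 ± 0.09 (adjusted p = 0.131), or -0.27 with adjusted p = 0.0159 without individual 8. In labelled upper, the even-numbered libraries were at 38.2, 43.6, 49.4 and 57.7 CPM and the odd-numbered ones at 29.2, 26.4, 36.8 and 37.7 CPM. The sets did not overlap in upper, as for Aldh1a2, where 9.55% of tested genes had sets apart. In labelled lower, the even-numbered libraries were at 49.7, 54.1, 49.5 and 43.4 CPM and the odd-numbered ones at 37.4, 43.5, 40.9 and 36.6 CPM, with a slight overlap. Rarb stepped with Pou3f3 at 7 of 7 steps in both labels. The even minus odd difference was 0.39 ± 0.09 (adjusted p = 0.0154), and without individual 3, 4, 6 or 7 the adjusted p was 0.0535, 0.0592, 0.081 and 0.0837. Rarb rose in upper by 0.18 ± 0.03 log2 per day (adjusted p = 0.00781) and had a slope of -0.04 ± 0.03 in lower (adjusted p = 0.46). Its exons overlap those of Top2b on the other strand over 34.06% of their length, and the library kit does not mark strand. Top2b measured 302.0 to 374.4 CPM, with an even minus odd difference of -0.09 (adjusted p = 0.213).

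With stage, 5 of the 9 genes rose and 1 fell in upper, where 7.68% of tested genes rose and 5.53% fell. In lower, 4 rose and 1 fell, where 6.85% rose and 4.14% fell. Cyp26a1, Aldh1a1 and Aldh1a3 rose in both labels, and in upper Cyp26c1 also rose, by 0.50 ± 0.13 log2 per day (adjusted p = 0.0339), against 0.03 ± 0.05 in lower (adjusted p = 0.69). Aldh1a2 had slopes of -0.20 ± 0.06 in upper (adjusted p = 0.0682) and -0.15 ± 0.05 in lower (adjusted p = 0.0907). The early and late individuals of a label were run on separate lanes, and with lane as a factor all 6 upper calls ended, at adjusted p = 0.122 to 0.619, with their signs kept. In lower, lane ended the calls of Cyp26a1 (0.143), Aldh1a1 (0.242) and Crabp1 (0.385), whereas those of Aldh1a3 and Crabp2 held.

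**Figure D5:**
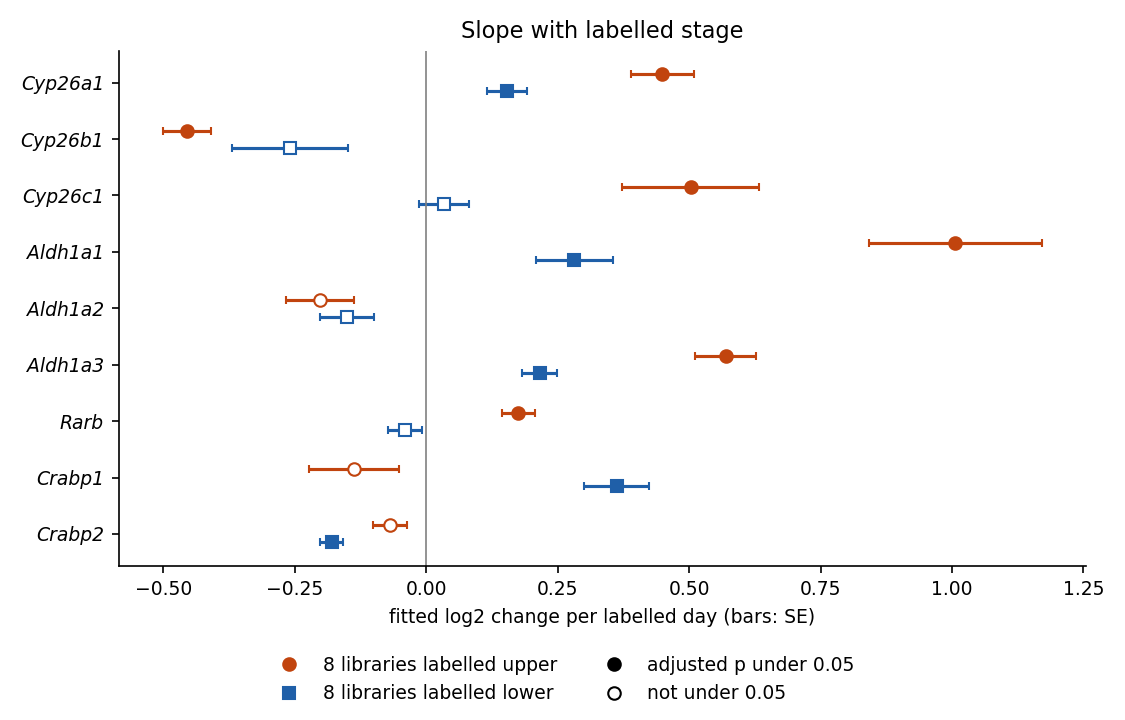
Fitted log2 change per labelled day with its standard error for each gene in the 8 libraries of either label. Aldh1a1 has the steepest upper slope at 1.01, Cyp26b1 falls by 0.46 in upper, and Crabp1 has opposite signs in the labels, -0.14 in upper and 0.36 in lower.

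The slopes were tested against each other between the labels. The upper slope was the higher for 4 genes, against 2.87% of tested genes, and the lower slope for 1 gene, against 2.49%, or 5.36% in either direction. Besides Aldh1a3 and Crabp1, these were Aldh1a1 at 0.75 ± 0.18 (adjusted p = 0.0287), Cyp26a1 at 0.30 ± 0.07 (adjusted p = 0.0261) and Rarb at 0.22 ± 0.05 (adjusted p = 0.0226). Cyp26c1 gave 0.48 ± 0.14 with adjusted p = 0.0585 in edgeR and 0.0321 in DESeq2. Each of the 5 calls was lost when some individual was left out, with adjusted p up to 0.163 for Cyp26a1, 0.159 for Aldh1a1, 0.0592 for Aldh1a3, 0.165 for Rarb and 0.265 for Crabp1. The labels differed in their even minus odd contrast for Cyp26a1, where 0.491% of genes had a positive difference, and for Crabp2, where 0.246% had a negative one. These calls were lost without any of individuals 1 to 6 for Cyp26a1 (adjusted p up to 0.139) and 1 to 7 for Crabp2 (up to 0.111). Whether the sets differed in their slopes gave 0 calls among all 16287 genes in edgeR and 0 in DESeq2, with 381 genes at an unadjusted p under 0.05. Among them were Cyp26a1 and Cyp26c1.

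Genes with the most similar course over the 16 libraries were sought among 12295 genes by Pearson's r of log2 CPM, as a description, since the points share labels, stages and individuals. Cyp26a1 ran closest to Tmem117, Kif21a and Aldh1a1, each at r = 0.97. Cyp26b1 ran closest to Dmrt2 at 0.98 and to Socs5 and Lrig1 at 0.97. Cyp26c1 ran closest to Nr1h3 at 0.94, Matn4 at 0.93 and the homeobox gene Dlx2 at 0.92. Aldh1a1 was nearest to Cyp26a1, then to Fgf9 at 0.97 and Dlx3 at 0.96, and Aldh1a3 to Fam13a, Moxd1 and Itga2, each at 0.99. Aldh1a2 was nearest to Hebp1 at 0.95, Map3k5 at 0.94 and the imprinted RNA Peg13 at 0.92, and Rarb to Fam189a1 and Timp3 at 0.94 and Lrrc17 at 0.92. Crabp1 was nearest to Plac8 and Hapln1 at 0.97 and Dlgap3 at 0.96, and Crabp2 to Slc16a13 at 0.98, Cpne7 at 0.97 and Camkk2 at 0.96. Within the set itself, r was -0.93 between Cyp26a1 and Cyp26b1, 0.87 between Cyp26a1 and Cyp26c1, -0.88 between Crabp1 and Crabp2 and -0.56 between Aldh1a2 and Aldh1a3.

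The rest of the pathway was read from a list of 45 other genes, of which 44 were in the tables and 38 passed the filter. Of these, 13 were higher in upper and 12 higher in lower, 25 of 38 in all, where 41.1% of tested genes passed in either direction. The median difference of the list was -0.00209 on the log2 scale, against 0.00542 over all genes. Among genes that retinoic acid is known to induce or that modify its response, Meis2, a homeobox gene, was higher in upper by 2.21 ± 0.21, Zfp703 by 0.83 ± 0.09, Meis1 by 0.74 ± 0.08 and Hic1 by 0.64 ± 0.13. Of the same group, Rarres1 at -1.59 ± 0.27 and Tgm2 at -0.34 ± 0.09 were higher in lower. Of the orphan nuclear receptors that compete for Rar sites, Nr2f1 was higher in upper by 0.80 ± 0.23 and Nr2f2 by 0.74 ± 0.07. Among the receptors, Rara was higher in upper by 0.30 ± 0.05 and Rxra by 0.22 ± 0.03, while Rxrg was -3.44 ± 0.27. Rxrg was scarce, at 0.181 to 1.69 CPM in upper and 4.35 to 12.1 CPM in lower. Rara was at 79.0 to 119.0 CPM over all libraries. Upstream, the genes higher in lower included Stra6, the retinol uptake receptor, at -1.78 ± 0.21, the retinol dehydrogenase Rdh10 at -0.69 ± 0.12, the retinal reductase Dhrs3 at -0.34 ± 0.13 and the retinol carrier Rbp4 at -0.43 ± 0.15.

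Between the sets, 4 of the 38 listed genes were higher in the even-numbered individuals and 2 in the odd-numbered, where 7.04% and 5.5% of all tested genes were. Those higher in even included Nr2f1 at 1.75 ± 0.24, Hic1 at 0.79 ± 0.14 and Rbp4 at 0.68 ± 0.16. Meis1 differed by -0.27 ± 0.08 and Fabp5 by -0.26 ± 0.04. With no filter on low counts, or with lane as a factor and linear day, 1 of the 38 was higher in odd. With stage, 10 of 38 rose and 3 fell in upper, against 7.68% and 5.53% of all tested genes. In lower 3 rose and 1 fell, against 6.85% and 4.14%. Stra6 rose in upper by 0.47 ± 0.09 log2 per day and Rarres1, a retinoic acid responder, by 0.83 ± 0.11. Rarres1 was scarce in upper, at 0.311 to 1.87 CPM. In the same label Meis2 fell by 0.40 ± 0.05 and Nr2f2 by 0.22 ± 0.02. In lower, Rdh10 rose by 0.35 ± 0.05 and Tgm2, a transglutaminase induced by retinoic acid, by 0.26 ± 0.03. The paired half-sites at a spacing of 5 bases were found for 0 of the 32 listed genes that had a promoter window.

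Cell type markers moved with one or both contrasts in some lists only. Their counts stand against 20.7% of tested genes higher in upper, 20.4% in lower, 7.04% in even and 5.5% in odd. The 7 dental mesenchyme markers summed to 1309 to 1839 CPM in upper and 693.5 to 1468 CPM in lower, with 6 of 7 higher in upper, the label in which Cyp26b1, Aldh1a2 and Crabp2 were higher. Of the same 7, 5 were higher in the even-numbered individuals, with Aldh1a2 and Rarb. The 6 dental epithelium markers summed to 3356 to 4297 CPM in the odd-numbered and 2546 to 3371 CPM in the even-numbered upper libraries, and 5 of 6 were higher in odd. Between the labels, 1 of these 6 was higher in upper and 2 in lower. The 6 markers of cornifying oral epithelium summed to 58.7 to 379.4 CPM in upper and 144.2 to 1451 CPM in lower, with 5 of 6 higher in lower, as were 4 of 5 markers of macrophages and leukocytes. The 5 neuron markers summed to 39.0 to 55.1 CPM in upper and 64.0 to 89.9 CPM in lower, with no overlap, 1 of 5 being higher in upper and 2 in lower. The 5 erythroid markers summed to 28.5 to 136.9 CPM in upper and 13.007 to 28.0 CPM in lower, also with no overlap, 3 of 5 being higher in upper. Of the 4 Schwann cell markers, 3 were higher in even. The 5 bone markers summed to 376.8 to 606.4 CPM in the odd-numbered and 702.3 to 764.3 CPM in the even-numbered upper libraries. In lower the sets overlapped, at 453.2 to 593.5 CPM in odd and 521.5 to 607.5 CPM in even. Of the 4 bone markers tested, 2 were higher in even, and between the labels 2 were higher in upper and 2 in lower. With stage, 6 of the 7 mesenchyme markers fell in lower, where 4.14% of tested genes fell, and in upper 3 fell and 2 rose. Between the labels, 0 of the 4 Schwann cell markers were called, 1 of 5 skeletal muscle markers was higher in upper and 2 of 4 endothelium markers in lower. Between the sets, 0 markers of cornifying epithelium, macrophages and leukocytes, skeletal muscle or endothelium were called. Of the 5 cartilage markers, 2 were higher in upper and 2 in lower, and 2 in even and 1 in odd. No marker of these lists was at 0 in every library, and the part of the lists in the results was not tested.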

How the data were processed

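For every one of the 16 libraries the authors deposited whole-number counts by gene symbol, without normalization. Per the labels' protocols, libraries came from a poly(A) kit that does not mark strand, read as pairs of 100 bases. The submitters' processing notes name TopHat2 2.0.6, Bowtie2 2.0.2, HTSeq 0.5.3p9 and the build mm10. Neither annotation nor strand setting is given in the sources used here. The 5 summary lines of each table were left out of library totals and tests (11.8% to 14.1% of counts on no feature, 0.896% to 1.07% ambiguous, 6.07% to 6.67% not unique). No pair among 120 library pairs was identical.

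CPM were computed from each library's gene total. Genes reaching 0.269 CPM (10 counts at the median total) in at least 2 libraries entered the quasi-likelihood test of edgeR 4.0.16 (R 4.3.3, TMM factors, Benjamini-Hochberg adjustment over 16287 genes, threshold 0.05), after a check on simulated data. The tooth and set contrasts shared a fit over all 16 libraries, with label, set and a natural spline of labelled day with 3 degrees of freedom. Slopes used the 8 libraries of a label with set and linear day, and the interactions used label, set, linear day and their pairwise products over all 16. Adjusted p without another tool named are from edgeR. Lengths and positions are from GENCODE M21. Shares were compared with exact two-sided permutation tests (scipy 1.17.1) that took libraries as independent, without stage or labelled individual. Alternatives were DESeq2 1.42.0, no filter, linear day, lane, no set term, the individual as a block, and leaving out each individual. For the set contrast, lane entered together with linear day.

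The members, the pathway and marker lists and these tests were chosen with earlier results of these data known. All 9 members are named, and some listed genes that met the rule below are not reported here. Genes of the pathway list may be named where past the threshold in the tooth or set difference, Pou3f3 and Nkx2-3 are named for the alternation, and for likeness the 3 genes with the highest r among genes with a mean count of at least 50. The labels give both libraries of a stage the same individual. Same-numbered libraries deviated together from their label means (r = 0.121 to 0.279 over 8 pairs), and after the set and day terms r was -0.0167 to 0.061.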

Additional observations from a re-analysis of the deposited data

Results flagged for a closer look

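In 54 groups tested for a library far from the rest, 3 stood apart, and chance flags about 1 in 20 groups. Cyp26a1 was at 69.3 CPM in labelled lower individual 1, below the other odd-numbered lower libraries (97.5 to 102.2 CPM). Aldh1a2 was at 108.7 CPM in labelled upper individual 8, below the other even-numbered upper libraries (144.4 to 148.4 CPM). Crabp1 was at 22.7 CPM in labelled upper individual 1, above the other 7 upper libraries (9.69 to 14.9 CPM).

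Of 27 tests of whether an effect differs between groups, 7 passed, each at the adjusted p given with the gene above. The even minus odd difference was more positive in upper than in lower by 0.82 on the log2 scale for Cyp26a1 and differed by -0.49 for Crabp2. The slope per day was higher in upper by 0.75 for Aldh1a1, 0.36 for Aldh1a3, 0.30 for Cyp26a1 and 0.22 for Rarb, and differed by -0.50 for Crabp1.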

How the results depend on the processing

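Over all alternatives, 633 values of the 9 genes kept their side of the threshold, 66 lost a call and 12 gained one. Some values that were not called changed sign. Without 1 individual, the even minus odd difference was -0.06 to 0.09 for Cyp26b1 and -0.13 to 0.21 for Aldh1a1. Without 1 individual, the number of genes called in the set contrast was 717 to 1799 (2042 with all), and for the upper slope 1018 to 1840 (2152), the lower slope 674 to 2036 (1789), the label by set term 4 to 140 (120) and the label by stage term 264 to 801 (873). Fewer libraries and fewer degrees of freedom enter those fits. Lane as a factor left 133 upper and 721 lower slopes, and dropping the set term 999 and 670. DESeq2 called 321 genes for the label by set term and 1344 for label by stage. For the other shifts the cause was not tested. With the replicate block for the individual, 6122 genes differed between the labels, against 6692 without it, and the pairing changed no call among the 9 genes. Without the set term, Cyp26c1 (0.162) and Rarb (0.0884) lost their upper slope calls, and Cyp26a1 (0.493), Aldh1a1 (0.0746), Aldh1a3 (0.239) and Crabp2 (0.129) their lower ones. The upper slope of Cyp26c1 also failed without individual 1, 3, 4 or 7 (adjusted p up to 0.115), the lower slopes of Cyp26a1 without 1, 2 or 8 (up to 0.128) and of Aldh1a1 without 1, 2, 4, 6, 7 or 8 (up to 0.194). Among the 9 genes, counts were lowest for Aldh1a1 in upper, at 2 to 85 counts a library.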
